A study of Mus musculus with 3 samples.

Results

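Chemokines and chemokine receptors were followed across the cell classes of mouse hearts taken 2 weeks after surgery. Earlier results of these data were known when the family was chosen. The members were taken by gene symbol, as every row of the deposited feature list named as a CC, CXC, CX3C or XC chemokine, a receptor of these families, an atypical chemokine receptor or Ccrl2. This gave 67 of 32285 genes: 44 ligands, 18 signalling receptors, 4 atypical receptors and Ccrl2. Single nuclei were profiled from 3 groups with 1 library each: myocardial infarction with dapagliflozin (MI-DAPA), myocardial infarction with NS (MI-NS) and sham surgery with NS (Sham-NS). Dapagliflozin inhibits a kidney sodium-glucose transporter and is used against diabetes and heart failure. The labels do not expand NS, and they give no strain, age, sex, dose, number of animals per library or hour of collection. With 1 library a group no difference could be set against the spread between animals, so there is no test, no p-value and no standard error, and brackets give 95% intervals that cover counting error only. Whether a difference came from the treatment, the animals, the piece of tissue or the handling of a library cannot be told apart.

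The quantity measured was the UMI, a tag read once for each captured RNA molecule. After filtering, 4795 MI-DAPA, 6196 MI-NS and 6964 Sham-NS nuclei were kept in clusters that were not mixed, with 6196146, 6997086 and 8031544 UMIs in the same order and medians of 728 to 794.5 UMIs a nucleus. Mitochondrial UMIs took a median of 2.49% of a nucleus in MI-DAPA, 1.52% in MI-NS and 3.43% in Sham-NS, and the nuclear RNA Malat1 took 5.98% of UMIs in MI-DAPA, 9.40% in MI-NS and 5.52% in Sham-NS. Their part in the results below was not tested. Pairs of libraries shared 13 to 20 cell barcodes, at most 0.315% of the smaller library. Classes were named from marker genes that hold no member, with all members left out of the clustering, and are written as "-like". Levels are CPM, the UMIs of a gene scaled to 1000000 UMIs of a class in a library. They are not scaled by gene length, so levels are compared between libraries and classes and never between genes. Some clusters were mostly of 1 library: the mesothelial-like nuclei numbered 15 in MI-DAPA, 441 in MI-NS and 15 in Sham-NS, the adipocyte-like 1, 87 and 2 and the plasma cell-like 1, 32 and 0.

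Chemokines are small secreted proteins that steer leukocytes along gradients. Their families are named for the spacing of the first cysteines, and they act through G protein-coupled receptors that slow cyclic AMP production and turn on the kinases and small GTPases of migration. Atypical receptors bind the same ligands without G protein signalling and mostly remove them. In the injured heart this system is best known for bringing monocytes in through Ccr2 and its ligands, for Cx3cr1 on monocytes and macrophages, and for Cxcl12, which endothelial and stromal cells make for cells that carry Cxcr4.

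Promoter sequences are shown for 3 ligands. Ccl8 and Ccl12 are neighbours on chromosome 11 and both were read mainly in macrophage-like nuclei, but their log2 ratios of MI-NS over Sham-NS there stood on opposite sides of 0, with an interval that reaches 0 for Ccl12. Cxcl10 is shown because 16 of its 43 UMIs were in a small cluster led by interferon-induced genes. RefSeq promoter sequences (build GRCm38.p6) were found for 46 member symbols and for 19 of 23 members with at least 50 UMIs. Each line is the strand of the gene, 5′ to 3′, and gives the 250 bases before its start. Capitals mark the motif matches named after the sequences.
Ccl8: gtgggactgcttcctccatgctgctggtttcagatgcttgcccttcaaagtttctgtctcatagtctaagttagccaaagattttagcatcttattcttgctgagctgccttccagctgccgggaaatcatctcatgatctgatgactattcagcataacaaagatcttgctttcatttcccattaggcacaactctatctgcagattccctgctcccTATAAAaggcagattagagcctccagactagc
Ccl12: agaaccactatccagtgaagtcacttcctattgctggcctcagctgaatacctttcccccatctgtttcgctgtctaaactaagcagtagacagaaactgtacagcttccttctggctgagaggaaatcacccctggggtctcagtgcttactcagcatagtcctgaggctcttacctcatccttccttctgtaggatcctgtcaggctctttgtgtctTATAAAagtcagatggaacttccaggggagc
Cxcl10: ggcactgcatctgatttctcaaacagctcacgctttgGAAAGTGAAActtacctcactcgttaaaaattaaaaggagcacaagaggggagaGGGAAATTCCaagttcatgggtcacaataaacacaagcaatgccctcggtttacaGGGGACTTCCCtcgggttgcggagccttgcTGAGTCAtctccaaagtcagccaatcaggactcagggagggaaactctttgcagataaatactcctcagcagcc
The Ccl8 sequence is chr11:82114935-82115184 on the plus strand, the Ccl12 sequence chr11:82101595-82101844 on the plus strand and the Cxcl10 sequence chr5:92348890-92349139 on the minus strand. A script searched both strands for 5 motifs: TATAAA, present in 12.4% of all 32851 promoters of that length; the interferon response motif of GAAA repeated after 2 free bases, in 2.98%; the AP-1 motif TGANTCA, in 6.75%; the kappa B motif of GGG and CC with 5 free bases between, in 45.8%; and the GAS motif TTCNNNGAA, in 7.02%. Ccl8 and Ccl12 each held TATAAA, at bases 32 to 27 and 31 to 26 before the start, and none of the other 4. Cxcl10 held the interferon response motif at bases 213 to 204, the AP-1 motif at 74 to 68 and 3 kappa B matches at 159 to 150, 104 to 95 and 103 to 94, of which the last overlap each other, and neither TATAAA nor the GAS motif. These matches describe letters and say nothing of binding.

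The family was read most densely in macrophage-like nuclei, though lymphatic endothelial-like and conventional dendritic-like nuclei came near them in some libraries. Of the 66 genes described here, 49 had at least 1 UMI in the kept nuclei and 23 had at least 50. The same shares over all genes are not given here, so these counts do not set the members apart from other genes. In macrophage-like nuclei these members together had 1917 CPM (1736 to 2110.4) in MI-DAPA, 1857 (1745 to 1975) in MI-NS and, in Sham-NS, 1191 (1098 to 1291), so that both infarct libraries stood above Sham-NS. Most of the difference between MI-DAPA and Sham-NS was Cxcl16. In all other kept nuclei the members had 178, 350.5 and 227 CPM in the same order. The 347, 777 and 734 macrophage-like nuclei of MI-DAPA, MI-NS and Sham-NS held 28.0%, 31.2% and 25.9% of the members' UMIs. Their signalling receptors had 375 CPM in MI-DAPA, 646 in MI-NS and 248 in Sham-NS, so that MI-NS stood highest. Their ligands had 1528 CPM in MI-DAPA, 1188 in MI-NS and 928 in Sham-NS, so that MI-DAPA stood highest. That order rested on Cxcl16, and with Cxcl16 left out the ligands of MI-DAPA stood lowest.

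Each of the 23 members with at least 50 UMIs had a class with its highest CPM over the 3 libraries, and for 10 of them this was the macrophage-like class. These were the ligands Ccl2, Ccl4, Ccl6, Ccl7, Ccl8, Ccl9, Ccl12 and Cxcl16 and the receptors Ccr1 and Cx3cr1, and the share of a member's UMIs found in macrophage-like nuclei ran from 28.6% for Ccl2 to 88.4% for Ccl12. Of 1249 Cxcl12 UMIs, 64.0% were in vascular endothelial-like nuclei. Of 331 UMIs of Ccl21a, the ligand that leads Ccr7-bearing cells into lymph vessels, 67.1% were in the 213 lymphatic endothelial-like nuclei. Cxcl14, a chemokine of stromal and epithelial cells, had 72.7% of its 66 UMIs in fibroblast-like nuclei, and Cx3cl1, the membrane-tethered ligand of Cx3cr1, 49.5% of 103. The dendritic, lymphoid and other small classes led for members that had few UMIs there. Ccr2 had its highest CPM in conventional dendritic-like nuclei, with 11 UMIs in 12 MI-DAPA nuclei, 10 in 35 MI-NS nuclei and 2 in 9 Sham-NS nuclei, although only 4.74% of its 485 UMIs lay there. Cxcr4 led in B cell-like nuclei on 10 of 152 UMIs, Cxcl1 in lymphatic endothelial-like nuclei on 4.27% of 117, Ccl25 in mesothelial-like nuclei on 23 UMIs, all from MI-NS (34.4 CPM), Ccrl2 in smooth muscle-like nuclei on 1, 0 and 1 UMIs, and Ccl27a in plasma cell-like nuclei on 1 UMI in MI-NS.

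**Figure D1:**
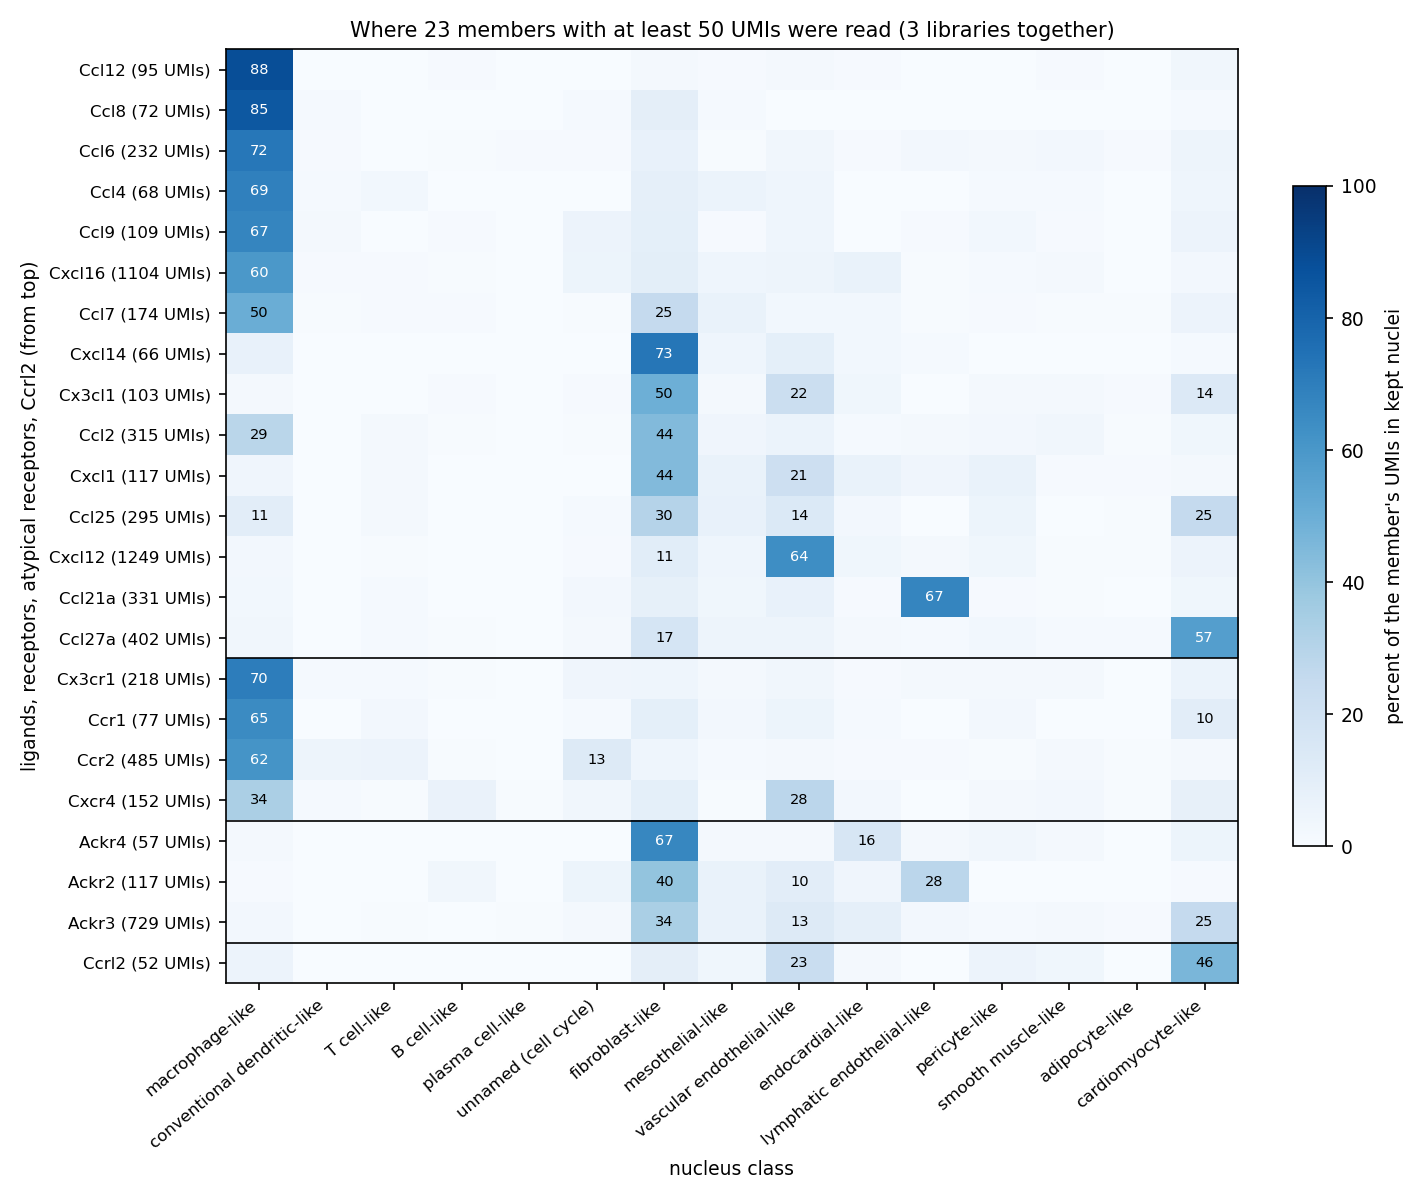
Heat map of the percent of each member's UMIs that fell in each class, for the 23 members with at least 50 UMIs and the 3 libraries together; rows are members grouped by role and columns are classes. The macrophage-like column is darkest for Ccl12 (88.4%), Ccl8 (84.7%) and Ccl6 (72.4%), Cxcl12 stands in the vascular endothelial-like column (64.0%) and Ccl21a in the lymphatic endothelial-like column (67.1%).

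Not every member was read alone. Where strand use in the counting is not given, reads of genes that overlap in the GENCODE M21 annotation cannot be told apart: Ccl27a overlaps Il11ra1, Ccl25 Elavl1, Cxcl16 Zmynd15, Ccl2 Gm17268, Ccl6 E230016K23Rik, Ackr4 Acad11 and Cxcl10 Art3 on opposite strands. Ccl21a and Ccl19 overlap 4930578G10Rik and Cxcr6 overlaps Fyco1 in the same way, as do some members with fewer UMIs with other genes. Ackr1 overlaps Cadm3 on the same strand, and the Cx3cr1 model spans Xirp1, a heart muscle gene, with Gorasp1 and Csrnp1. Ccl21a, Ccl27a and Ccl19 have near-identical copies, which were listed at 0 UMIs, so their counts may be incomplete. Ccl27a was read in most classes, at 26.4, 20.5 and 22.3 CPM in cardiomyocyte-like and 16.3, 17.8 and 12.8 CPM in fibroblast-like nuclei of MI-DAPA, MI-NS and Sham-NS.

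In macrophage-like nuclei the receptors Ccr2 and Cx3cr1 were each at least 2-fold higher after infarction with NS than after sham surgery, in each of the 10 alternatives run on them as well. In GENCODE M21 (mm10) Ccr2 (chr9:124101950-124113557) lies on the plus strand and Cx3cr1 (chr9:119901616-120069879) on the minus strand. Shares of nuclei with a UMI are set against cardiomyocyte-like nuclei, which should lack these genes. Median depths were 587, 647 and 627 UMIs in the macrophage-like and 2255, 1927 and 2217 in the cardiomyocyte-like nuclei of MI-DAPA, MI-NS and Sham-NS.

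Ccr2, which draws monocytes out of the bone marrow and into injured tissue, had 37 UMIs (171 CPM) in MI-DAPA, 201 (365 CPM) in MI-NS and 61 (122 CPM) in Sham-NS. The log2 ratio was 1.57 (1.16 to 2.02) for MI-NS over Sham-NS and -1.07 (-1.64 to -0.58) for MI-DAPA over MI-NS. The second of these calls was lost with a stricter nucleus filter (-0.98), with members allowed in the clustering (-0.81) and with classes set by marker level (-0.74). The conventional dendritic-like nuclei are a sub-cluster split from the same cluster as the macrophage-like ones; with them kept in the class, an alternative chosen after seeing the data, the ratio was -0.77 (-1.27 to -0.33) and that call was lost as well. Shares with a Ccr2 UMI were 6.05%, 13.4% and 4.63% as deposited and 5.19%, 11.7% and 3.95% after thinning, against 0%, 0.841% and 0.188% of cardiomyocyte-like nuclei; 0 of 1429 MI-DAPA nuclei is a count limited by depth. In MI-DAPA over Sham-NS the ratio was 0.50 (-0.14 to 1.10), which passed 2-fold with the stricter filter (1.07) and by marker level (1.47) and was 0.78 (0.20 to 1.34) with the dendritic-like nuclei kept in. By marker level the MI-NS over Sham-NS ratio was 2.21.

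Cx3cr1, the fractalkine receptor, had 29 UMIs (134 CPM) in MI-DAPA, 102 (185 CPM) in MI-NS and 22 (44.0 CPM) in Sham-NS. Both infarct libraries stood above Sham-NS, with log2 ratios of 1.60 (0.76 to 2.48) for MI-DAPA and 2.05 (1.40 to 2.81) for MI-NS, while MI-DAPA over MI-NS was -0.45 (-1.11 to 0.14). By marker level the first ratio was 2.32 and the second 2.86. Shares with a Cx3cr1 UMI were 6.92%, 10.8% and 2.59%, and 5.48%, 8.37% and 2.18% after thinning, against 0.21%, 0.946% and 0% of cardiomyocyte-like nuclei. These comparisons share libraries, so their values are only set side by side. Ccr1, a receptor of Ccl6 and Ccl9 in mice, had 8, 17 and 25 UMIs (37.0, 30.8 and 49.98 CPM), and Cxcr4 had 6, 30 and 15 UMIs (27.8, 54.4 and 30.0 CPM), both under the 50 UMIs over a pair of libraries that were asked of a measurable gene.

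The ligands of macrophage-like nuclei did not share 1 direction. Together they had 330 UMIs in MI-DAPA, 655 in MI-NS and 464 in Sham-NS. Cxcl16, which is held on the cell surface, binds Cxcr6 and also takes up oxidised lipid, had 217 UMIs (1005 CPM) in MI-DAPA, 264 (479 CPM) in MI-NS and 178 (356 CPM) in Sham-NS. It was the measurable member that stood at least 2-fold higher in MI-DAPA than in MI-NS, at a log2 ratio of 1.07 (0.80 to 1.33). The ratio was 1.497 (1.20 to 1.79) for MI-DAPA over Sham-NS and 0.43 (0.15 to 0.71) for MI-NS over Sham-NS. The first value was just under 2-fold with the stricter nucleus filter (0.96) and with classes set by marker level (0.93), and was 0.73 with mixed clusters kept. Shares of nuclei with a Cxcl16 UMI were 28.5%, 20.7% and 16.1%, and 26.8%, 16.6% and 13.4% after thinning, against 0.84%, 0.841% and 0.564% of cardiomyocyte-like nuclei.

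Ccl8, in mice a ligand of Ccr8, had 1 UMI in MI-DAPA, 56 (102 CPM) in MI-NS and 4 in Sham-NS macrophage-like nuclei. The log2 ratio was 3.51 (2.23 to 5.59) for MI-NS over Sham-NS and -3.88 (-9.78 to -1.92) for MI-DAPA over MI-NS. The first was 4.6 after thinning, and the second was -5.10 after thinning and -2.56 with the stricter filter. Ccl8 passed the floor of 50 UMIs through MI-NS alone and so had to differ. Its UMIs were in 1, 37 and 3 nuclei of MI-DAPA, MI-NS and Sham-NS, and its receptor gene Ccr8 had 0 UMIs in all libraries.

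The ligands of Ccr2 that lie near Ccl8 on chromosome 11 did not share its direction. Ccl7 had 19 UMIs (88.0 CPM) in MI-DAPA, 23 (41.7 CPM) in MI-NS and 45 (89.96 CPM) in Sham-NS, a log2 ratio of -1.09 (-1.90 to -0.35) for MI-NS over Sham-NS that was -0.71 after thinning and -1.81 with the stricter filter. Ccl12, found in mice and not in humans, had 16 (74.1 CPM), 28 (50.8 CPM) and 40 (79.96 CPM), and Ccl2 had 11 (50.9 CPM), 33 (59.9 CPM) and 46 (92.0 CPM). Their MI-NS over Sham-NS ratios were -0.65 (-1.41 to 0.08) and -0.61 (-1.31 to 0.06), intervals that reach 0, and that of Ccl12 was -0.05 with the stricter filter. In MI-DAPA over Sham-NS no direction held for these ligands. The log2 ratio was -0.01 for Ccl7, with alternatives from -0.41 to 0.16. It was -0.08 for Ccl12, with alternatives from -0.94 by marker level to 0.57 with the stricter filter. It was -0.80 (-1.95 to 0.12) for Ccl2, which was 0.67 with the stricter filter and -1.04 with members in the clustering.

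Ccl6 and Ccl9, mouse chemokines of myeloid cells, were within 2-fold between MI-NS and Sham-NS. Ccl6 had 18 UMIs (83.3 CPM) in MI-DAPA, 88 (160 CPM) in MI-NS and 62 (124 CPM) in Sham-NS, with 0.36 (-0.12 to 0.86) for MI-NS over Sham-NS. Its MI-DAPA over MI-NS ratio of -0.91 (-1.76 to -0.19) passed 2-fold with the stricter filter (-2.07), with mixed clusters kept (-1.38) and with members in the clustering (-1.07), and its MI-DAPA over Sham-NS ratio was -0.54 (-1.42 to 0.20), or -1.74 with the stricter filter. Ccl9 had 5, 41 and 27 UMIs, and 0.45 (-0.27 to 1.22) for MI-NS over Sham-NS. Ccl4, an inflammatory CC chemokine, had 16 (74.1 CPM), 26 (47.2 CPM) and 5 UMIs, so that both infarct libraries were above Sham-NS on counts too low to be measurable there. Ccl24, an attractant of eosinophils, had 3, 11 and 17 UMIs.

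**Figure D2:**
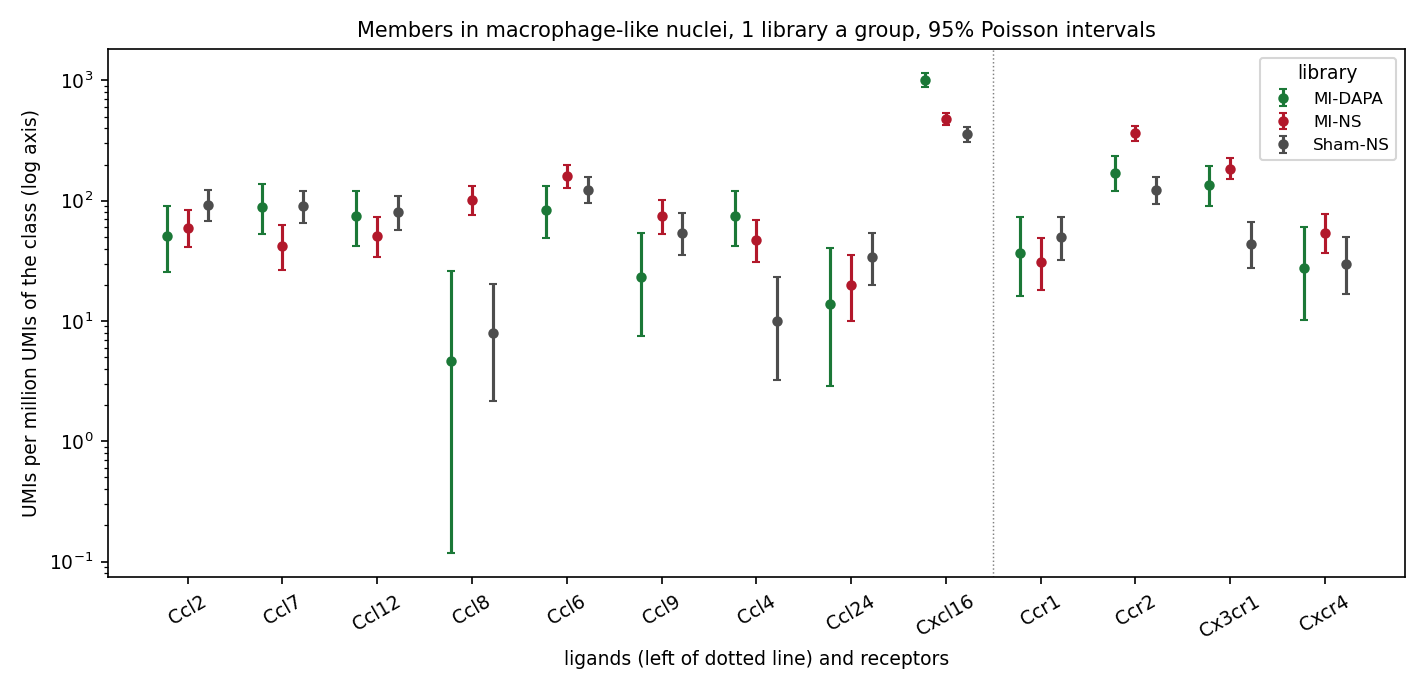
Levels of 13 members in macrophage-like nuclei, in CPM on a log axis, for MI-DAPA, MI-NS and Sham-NS from left to right; points are single libraries and bars are exact 95% Poisson intervals of counting error. Ccr2 (365 CPM) is highest in MI-NS, Cxcl16 (1005 CPM) in MI-DAPA, and Ccl8 stands at 102 CPM in MI-NS on 56 UMIs against 1 and 4 UMIs in MI-DAPA and Sham-NS.

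Among measurable members of macrophage-like nuclei, 1 of 5 was at least 2-fold higher and 2 of 5 at least 2-fold lower in MI-DAPA than in MI-NS, where 1.35% and 3.76% of 3406 measurable genes were. Their median log2 ratio was -0.91, against 0.02 over all measurable genes. In MI-NS over Sham-NS, 3 of 9 were at least 2-fold higher and 1 of 9 at least 2-fold lower, against 4.85% and 2.33% of 4372 genes, with a median of 0.43 against 0.04. In MI-DAPA over Sham-NS, 2 of 7 were at least 2-fold higher and 0 of 7 lower, against 1.5% and 1.96% of 3008 genes, with medians of -0.01 and 0.03. Members with few UMIs pass the floor more readily when 1 library is high, so these counts describe the members and are not support for them. Scaling by TMM factors in place of totals shifted the median of all genes by 0.11 in macrophage-like and fibroblast-like and by 0.21 in vascular endothelial-like and endocardial-like nuclei for MI-NS over Sham-NS, on the log2 scale, with the totals giving the higher values.

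Macrophage-like nuclei were clustered again without the members, and the sub-clusters took unlike shares of the libraries. Sub-cluster 0 (Clec10a, Folr2, Lyz2) held 59 MI-DAPA, 258 MI-NS and 170 Sham-NS nuclei. Sub-cluster 1 (Cd72, Tgfbr1) held 111, 297 and 78, sub-cluster 2 (Cd163, F13a1, Lifr) 99, 60 and 277, and sub-cluster 3 (Irf7, Ifi211 and other interferon-induced genes) 32, 115 and 181. The smaller sub-clusters 5 (Hpgd, Lilra5) and 7 (Mki67) held 34, 37 and 15 and 12, 10 and 13. Sub-cluster 4 (38, 132 and 100 nuclei) was set aside as mixed for its doublet scores, and sub-cluster 6 (12, 35 and 9) is the conventional dendritic-like class.

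Ccr2 differed unevenly between the sub-clusters. Sub-cluster 1 had 22 UMIs (329 CPM) in MI-DAPA, 96 (478 CPM) in MI-NS and 19 (370 CPM) in Sham-NS, with 0.34 (-0.35 to 1.16) for MI-NS over Sham-NS. In sub-cluster 3 that ratio was 1.31 (0.66 to 2.00) on 53 and 32 UMIs, and in sub-cluster 0 it was 2.77 (1.31 to 5.31) on 38 MI-NS and 3 Sham-NS UMIs, with 0 in MI-DAPA. Outside the class, sub-cluster 6 ran the other way in MI-DAPA over MI-NS, at 1.45 (0.08 to 2.85) on 11 UMIs (1097 CPM) against 10 (401 CPM), and the mixed sub-cluster 4 had 0 Ccr2 UMIs in MI-DAPA, 47 in MI-NS and 5 in Sham-NS. Cxcl16 was higher in MI-DAPA than in MI-NS in 5 sub-clusters of the class, at log2 ratios of 2.20 (1.23 to 3.15) in sub-cluster 0, 0.61 (0.22 to 1.00) in 1, 1.08 (0.08 to 2.32) in 2, 1.52 (0.77 to 2.24) in 3 and 1.61 (0.82 to 2.51) in 5. In the small sub-cluster 7 it had 5 UMIs in MI-DAPA and 8 in MI-NS. Sub-cluster 5 had its highest level, 2088 CPM in MI-DAPA against 671 in MI-NS and 765 in Sham-NS. Ccl8 was concentrated in sub-cluster 0, which held 48 of its 56 MI-NS UMIs (244 CPM), 1 in MI-DAPA and 0 in the 170 Sham-NS nuclei. In the same nuclei Ccl6 had 3, 77 and 30 UMIs, a log2 ratio of -2.06 (-4.58 to -0.67) for MI-DAPA over MI-NS. Cx3cr1 in sub-cluster 3 had 3, 27 and 11 UMIs, with 1.85 (0.83 to 3.05) for MI-NS over Sham-NS.

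**Figure D3:**
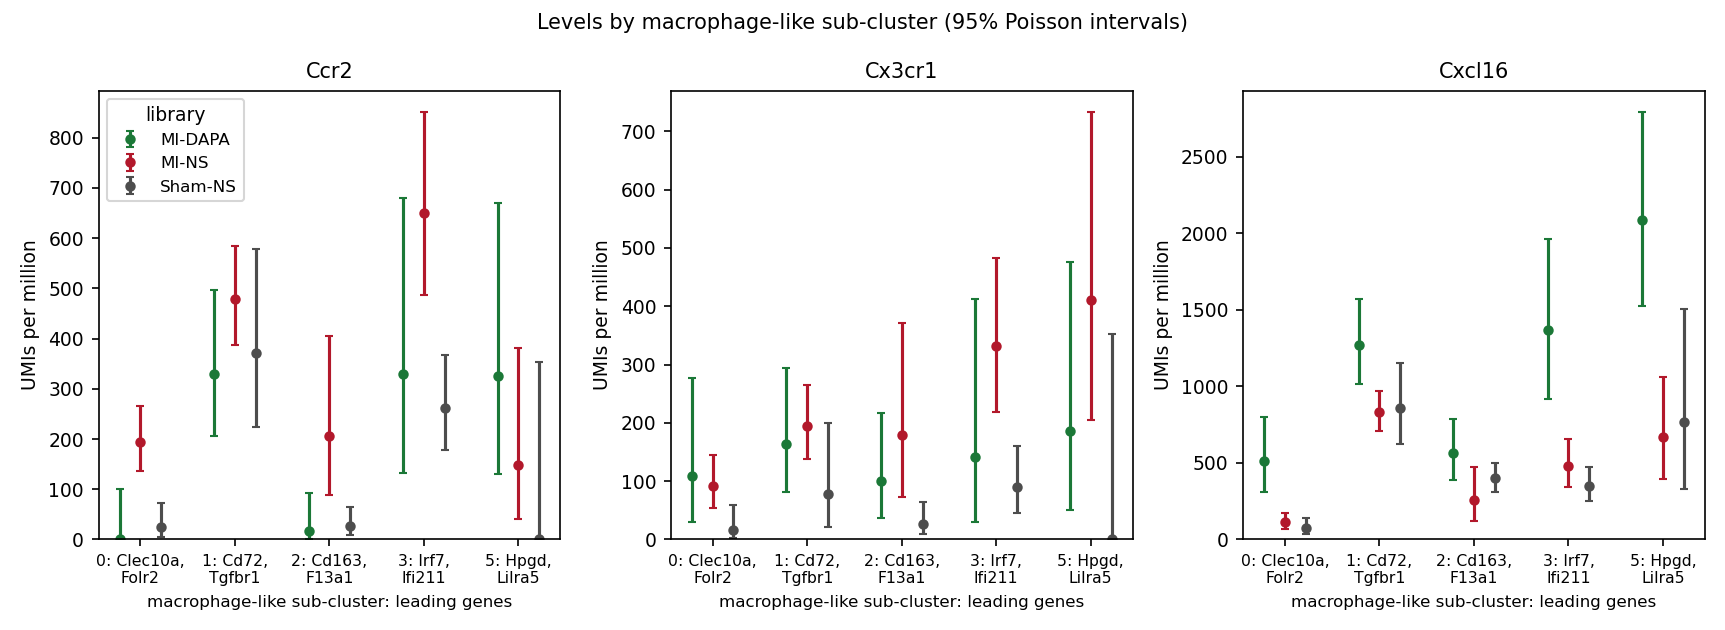
Levels of Ccr2, Cx3cr1 and Cxcl16 in 5 macrophage-like sub-clusters, in CPM, for MI-DAPA, MI-NS and Sham-NS from left to right with exact 95% Poisson intervals of counting error. MI-DAPA points lie highest for Cxcl16 in all 5, up to 2088 CPM in sub-cluster 5.

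Markers of other cells were present in the macrophage-like nuclei and differed between libraries. All 12 cardiomyocyte markers were read, at a summed 7514 CPM in MI-DAPA, 5774 in MI-NS and 8810 in Sham-NS, and the 12 fibroblast markers at 556, 1331 and 556, with Tcf21 and Dpt at 0 in MI-DAPA. The macrophage list itself summed to 7583, 7105 and 8714 CPM. The monocyte list summed to 41.7, 196 and 22.0 CPM, with 2, 5 and 4 of 8 markers read and Plac8, Chil3 and Ear2 at 0 in each library. The conventional dendritic list summed to 477, 1085 and 434 CPM, with 6, 9 and 7 of 10 markers read and Flt3, Cd209a and H2-Oa at 0 in MI-DAPA and Sham-NS. The dendritic list holds Clec10a, a leading gene of macrophage-like sub-cluster 0, so its sum does not measure dendritic cells alone. The part of the genes of these lists in the Ccr2, Cx3cr1 and Ccl8 values was not tested. Clock genes and mitochondrial genes differed along the same contrast. Of 7 measurable clock genes 6 were at least 2-fold lower in macrophage-like nuclei of MI-NS than of Sham-NS, Per2 the furthest at -3.65, and of 13 measurable RNA quality genes 8 were lower, mt-Nd1 the furthest at -1.50. In MI-DAPA over Sham-NS 6 of 7 measurable clock genes were at least 2-fold lower too, and 0 of 11 RNA quality genes were. Their part was not tested either.

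Counts for lists of genes around the chemokine system in macrophage-like nuclei are read against the shares of all measurable genes, 4.85% higher and 2.33% lower in MI-NS over Sham-NS and 1.35% and 3.76% in MI-DAPA over MI-NS. Of 54 measurable genes of receptor signalling (82 listed), 3 were at least 2-fold higher and 1 lower in MI-NS than in Sham-NS, with a median log2 ratio of 0.13, a count near the share of all genes. Rap1b, a small GTPase of integrin activation, was the highest at 1.29 (95 against 35 UMIs), and Adcy6, an adenylyl cyclase, the lowest at -1.36 (28 against 66 UMIs). Of 34 measurable inducers of chemokine transcription 5 were higher and 0 lower, Cebpb, a transcription factor of myeloid inflammation, the highest at 2.18 (52 against 10 UMIs). Of 9 adhesion genes only Selplg, the selectin ligand, passed 2-fold, at 1.11, of 9 glycan and protease genes 0 did, and of 10 other attractant genes only Ch25h, which makes the ligand precursor of Gpr183, did, at 1.13. In MI-DAPA over MI-NS no gene of these lists was at least 2-fold higher. Pik3r1, a regulatory kinase subunit, was the lowest of 2 of 49 signalling genes at -1.22 (13 against 80 UMIs), Cd47 was 1 of 9 adhesion genes at -1.17, and Sulf2, which trims the heparan sulphate that holds chemokines, the lowest of 2 of 6 glycan and protease genes at -2.14 (4 against 50 UMIs).

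In fibroblast-like nuclei Cxcl12, Cxcl16, Ccl25, Cx3cl1 and Cxcl1 had their highest level in MI-NS, Ccl2 in MI-DAPA and Ccl7 and Cxcl14 in Sham-NS, and the scavenger Ackr3 stood highest in Sham-NS. These nuclei came from different clusters in the 3 groups: cluster 3 (Comp, Ltbp2, Postn) held 476 MI-DAPA, 1332 MI-NS and 8 Sham-NS nuclei, cluster 4 (Lvrn, Dpep1, Abca8a) 157, 32 and 1500, and cluster 5 (Vcan, Gfpt2, Pi16) 714, 681 and 255. Ackr3, which binds Cxcl12 and removes it, had 32 UMIs (29.0 CPM) in MI-DAPA, 89 (48.1 CPM) in MI-NS and 124 (93.0 CPM) in Sham-NS. Its log2 ratio was -1.67 (-2.29 to -1.11) for MI-DAPA over Sham-NS, -0.72 (-1.36 to -0.13) for MI-DAPA over MI-NS, or -1.21 with the stricter filter, and -0.95 (-1.36 to -0.55) for MI-NS over Sham-NS; the last passed 2-fold with TMM (-1.06), median-of-ratios (-1.10) and the stricter filter (-1.03). Within cluster 5 alone Ackr3 had 45.4 CPM in MI-DAPA, 103 in MI-NS and 219 in Sham-NS, with -1.17 (-1.91 to -0.49) for MI-DAPA over MI-NS and -1.09 (-1.67 to -0.50) for MI-NS over Sham-NS.

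Cxcl12 had 21 UMIs (19.0 CPM) in MI-DAPA, 78 (42.2 CPM) in MI-NS and 33 (24.8 CPM) in Sham-NS fibroblast-like nuclei, above the 5.77, 6.19 and 9.53 CPM of cardiomyocyte-like nuclei. Its log2 ratio was -1.12 (-1.92 to -0.44) for MI-DAPA over MI-NS, 0.76 (0.16 to 1.40) for MI-NS over Sham-NS and -0.37 (-1.24 to 0.45) for MI-DAPA over Sham-NS, which was above 0 in 3 alternatives (0.05 to 0.09). The first stayed negative but missed 2-fold in 5 alternatives, the smallest being -0.61 with the stricter filter. In cluster 3 it was 6 UMIs in MI-DAPA against 65 in MI-NS, a log2 ratio of -1.78 (-3.39 to -0.69), and in cluster 5 it was 10 against 11 UMIs and -0.13 (-1.53 to 1.24). Cxcl16 had 17 (15.4 CPM), 66 (35.7 CPM) and 25 (18.8 CPM) UMIs, with -1.18 (-2.08 to -0.43) for MI-DAPA over MI-NS, which missed 2-fold in 4 alternatives at -0.86 to -0.999, and 0.91 (0.24 to 1.65) for MI-NS over Sham-NS, or 1.01 after thinning. For Cxcl16 MI-DAPA stood above MI-NS in macrophage-like nuclei and below it in fibroblast-like nuclei; the difference between the classes was not tested.

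Ccl25, a thymus and gut chemokine that binds Ccr9, had 14 (12.7 CPM), 55 (29.7 CPM) and 20 (15.001 CPM) UMIs in the fibroblast-like nuclei of MI-DAPA, MI-NS and Sham-NS, with -1.19 (-2.19 to -0.36) for MI-DAPA over MI-NS and 0.96 (0.23 to 1.80) for MI-NS over Sham-NS. The first missed 2-fold in 2 alternatives at -0.91 and -0.98, and the second passed it with the stricter filter (1.52), marker level (1.31) and mixed clusters kept (1.28). The macrophage list summed to 105, 181 and 173 CPM in the fibroblast-like nuclei, with Adgre1 and Fcgr1 at 0 in MI-DAPA, and its part in the Cxcl16 values was not tested.

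Ccl2 had 46 (41.6 CPM), 56 (30.3 CPM) and 38 (28.5 CPM) UMIs in fibroblast-like nuclei. Its MI-DAPA over MI-NS ratio was 0.46 (-0.13 to 1.05), or 1.34 by marker level, its MI-DAPA over Sham-NS ratio was 0.54 (-0.10 to 1.21), and its MI-NS over Sham-NS ratio of 0.08 (-0.53 to 0.72) turned negative with TMM (-0.03), median-of-ratios (-0.07), the stricter filter (-0.26) and marker level (-0.88), so no direction is given. Cx3cl1 had 12 (10.9 CPM), 39 (21.1 CPM) and 0 UMIs. Against a floor of 3 counts in Sham-NS, Cx3cl1 was 9.37-fold higher in MI-NS and 4.83-fold higher in MI-DAPA. These values are not lower bounds, since counting error in the infarct libraries is left out. Both pairs with Sham-NS were under the UMI floor asked of a measurable gene. In MI-DAPA over MI-NS Cx3cl1 was measurable, at a log2 ratio of -0.92 with alternatives from -1.61 to -0.49. Of the MI-DAPA and MI-NS UMIs of Cx3cl1, 9 and 37 were in cluster 3, which held 8 Sham-NS nuclei. Cxcl14 had 10 (9.05 CPM), 9 (4.86 CPM) and 29 (21.8 CPM), and 28 of the Sham-NS UMIs were in cluster 4. Ccl7 had 13, 8 and 23 UMIs. Cxcl1, an attractant of neutrophils, had 13, 28 and 11 UMIs, and Ccl27a had 18, 33 and 17, with -0.11 (-1.05 to 0.74) for MI-DAPA over MI-NS, which was above 0 in 2 alternatives, and 0.46 (-0.40 to 1.42) for MI-NS over Sham-NS. Cxcl10, the interferon-induced ligand of Cxcr3 whose promoter is shown above, had 43 UMIs in all. Of these, 16 were in cluster 24, 43 nuclei led by Ifit3, Ifit1 and Rsad2 of which 36 were from MI-NS.

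Of 7 measurable members in fibroblast-like nuclei, 0 were at least 2-fold higher and 3 at least 2-fold lower in MI-DAPA than in MI-NS, against 1.14% and 3.57% of 8299 genes, and their median log2 ratio was -0.92 against -0.05. The 3 lower were Cxcl12, Cxcl16 and Ccl25, whose MI-NS UMIs alone passed the floor. The counts and median therefore describe the members and are not support for them. In MI-NS over Sham-NS, 0 of 6 were higher and 0 lower, against 9.05% and 4% of 8504 genes, with medians of 0.61 and 0.12. In MI-DAPA over Sham-NS the values were 0 higher and 1 lower of 3, against 3.96% and 2.65% of 7275 genes. Of 57 measurable receptor signalling genes, 5 were higher and 6 lower in MI-NS over Sham-NS. The kinase Ptk2b was the highest at 3.42 (81 against 5 UMIs) and Adcy9 the lowest at -1.46, and in MI-DAPA over MI-NS they were the ends again, at -1.48 and 1.73. Among other lists the ends in MI-NS over Sham-NS were Fos (2.01) and Il6ra (-2.08) for inducers, Mcam (2.19) for adhesion, Mmp14 (2.36), a protease that cuts chemokines, and Dpp4 (-1.57), which trims them, for glycans and proteases, and S1pr2 (1.15) and Rarres2 (-1.17) for other attractants. In MI-DAPA over MI-NS each of those lists had genes at least 2-fold lower and 0 higher, the lowest being Cebpb (-1.01), Cd44 (-1.55), Hs6st2 (-2.34) and Cd74 (-2.04). Clock genes differed as well, with Arntl at 4.62 and Per2 at -4.77 in MI-NS over Sham-NS and Per1 at 1.16 in MI-DAPA over MI-NS, as did mt-Nd1 (-1.23) and mt-Nd2 (1.01) in those contrasts, and their part was not tested. In MI-DAPA over Sham-NS 3 of 14 measurable clock genes were at least 2-fold higher and 8 lower, and their part was not tested either.

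Cxcl12 in vascular endothelial-like nuclei was the member with the most UMIs in any class, and its levels were within 2-fold of each other. It had 189 UMIs (288 CPM) in MI-DAPA, 210 (308 CPM) in MI-NS and 400 (345 CPM) in Sham-NS, with log2 ratios of -0.10 (-0.39 to 0.19) for MI-DAPA over MI-NS, which was 0.02 with both other scalings and 0.43 by marker level, -0.16 (-0.41 to 0.08) for MI-NS over Sham-NS, or -0.60 by marker level, and -0.26 (-0.52 to -0.01) for MI-DAPA over Sham-NS. The 3 clusters of the class differed behind that level. Cluster 1 (Slc26a10, Flt1; 422, 377 and 1464 nuclei) had 322, 337 and 348 CPM. Cluster 7 (Kit, Kdr; 477, 480 and 116 nuclei) had 156, 241 and 76.1 CPM, with -0.63 (-1.17 to -0.11) for MI-DAPA over MI-NS and 1.56 (0.48 to 3.15) for MI-NS over Sham-NS on 85 and 6 UMIs. Cluster 15 (Sema3g, Sox17, Dll4; 75, 86 and 142 nuclei) had 975, 581 and 530 CPM, with 0.74 (0.08 to 1.43) for MI-DAPA over MI-NS. Cxcr4, its signalling receptor, had 13, 21 and 9 UMIs in the class.

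Among vascular endothelial-like nuclei Ackr3 stood above Sham-NS in MI-NS, and among fibroblast-like nuclei below it. It had 23 UMIs (35.1 CPM) in MI-DAPA, 45 (66.1 CPM) in MI-NS and 28 (24.2 CPM) in Sham-NS, with 1.44 (0.74 to 2.19) for MI-NS over Sham-NS, -0.90 (-1.71 to -0.16) for MI-DAPA over MI-NS and 0.54 (-0.32 to 1.39) for MI-DAPA over Sham-NS, or 1.08 with the stricter filter; the difference between the classes was not tested. In cluster 1 alone the MI-NS over Sham-NS ratio was 1.40 (0.43 to 2.32). The fibroblast list summed to 476, 1576 and 602 CPM in this class, with all 12 markers read in each library, and its part was not tested. Of the 2 measurable members, 1 was at least 2-fold higher and 0 lower in MI-NS over Sham-NS, against 6.31% and 2.62% of 6182 genes. In MI-DAPA over MI-NS 0 of 2 passed 2-fold, against 0.728% higher and 3.41% lower of 5219 genes, and in MI-DAPA over Sham-NS 0 of 2, against 1.99% and 1.97% of 5929. The lists around chemokines held Arrb1 (2.05), the arrestin that couples to receptors, Relb (1.93), Mcam (1.86), Mmp14 (2.67), Glce (-1.28) and C3 (1.40) as ends in MI-NS over Sham-NS, and Arrb1 (-1.46) and Mmp14 (-1.11) in MI-DAPA over MI-NS. Per2 stood at -4.98, Arntl at 4.80 and mt-Nd1 at -1.12 in MI-NS over Sham-NS and Hbb-bs at -1.47 in MI-DAPA over MI-NS, and their part was not tested.

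**Figure D4:**
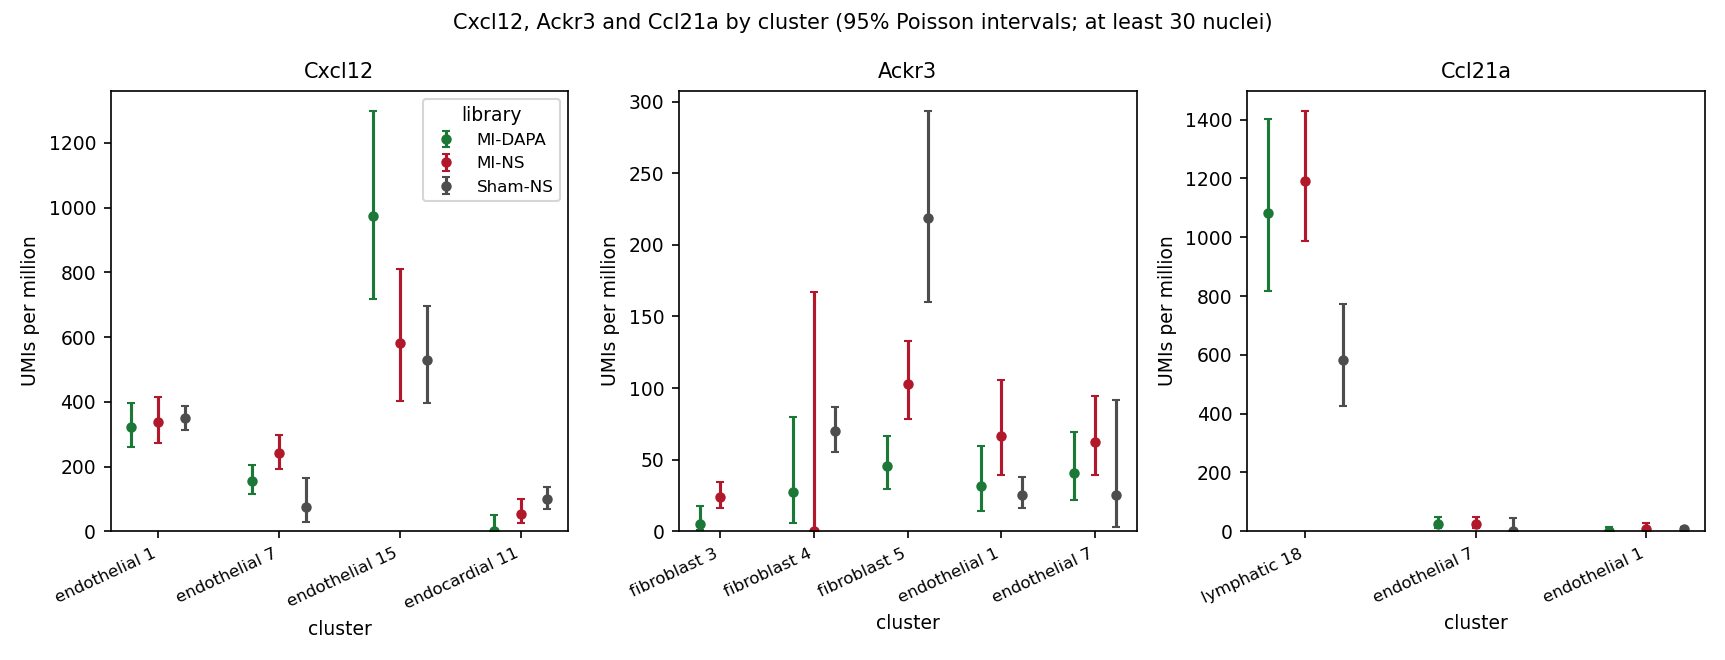
Levels of Cxcl12, Ackr3 and Ccl21a in clusters with at least 30 nuclei in a library, in CPM, for MI-DAPA, MI-NS and Sham-NS from left to right with exact 95% Poisson intervals of counting error. Cxcl12 is level in endothelial cluster 1 and highest in MI-DAPA in cluster 15 (975 CPM), Ackr3 is highest in Sham-NS in fibroblast cluster 5 (219 CPM), and Ccl21a is at 1081 and 1192 CPM in MI-DAPA and MI-NS against 581 in Sham-NS.

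Ccl21a in lymphatic endothelial-like nuclei had 57 UMIs (1081 CPM) in 57 MI-DAPA nuclei, 118 (1192 CPM) in 79 MI-NS nuclei and 47 (581 CPM) in 77 Sham-NS nuclei. Both infarct libraries were above Sham-NS, with log2 ratios of 0.89 (0.31 to 1.48) for MI-DAPA and 1.03 (0.54 to 1.56) for MI-NS, and MI-DAPA over MI-NS was -0.13 (-0.62 to 0.33). The MI-DAPA over Sham-NS ratio passed 2-fold by marker level (1.28) and was 0.33 with the stricter filter, where MI-DAPA over MI-NS was -0.84. It was the 1 measurable member of the class, where 4.37% of 504 genes were at least 2-fold higher and 7.54% lower in MI-NS over Sham-NS. The same shares were 6.62% and 3.82% in MI-DAPA over MI-NS and 2.05% and 2.35% in MI-DAPA over Sham-NS, where Ccl21a was within 2-fold. The MI-NS over Sham-NS call was lost with TMM (0.91), median-of-ratios (0.96), finer clusters (0.92) and members in the clustering (0.57). Shares with a Ccl21a UMI were 45.6%, 55.7% and 36.4%, and 38.6%, 40.5% and 23.4% after thinning, against 0.28%, 0.841% and 0% of cardiomyocyte-like nuclei; median depths of the lymphatic endothelial-like nuclei were 793, 1053 and 847 UMIs. The lymphatic marker list summed to 4628, 3152 and 4590 CPM and the fibroblast list to 1366, 4072 and 1905 CPM there, and their part was not tested. Ackr2, which clears inflammatory CC chemokines, had 11 (209 CPM), 14 (142 CPM) and 8 (99.0 CPM) UMIs there. Of its 117 UMIs 28.2% were in these nuclei and 40.2% in fibroblast-like nuclei. In fibroblast cluster 5 Ackr2 had 11, 8 and 12 UMIs, under the floor. The log2 ratios over Sham-NS there were -1.60 (-2.93 to -0.30) for MI-DAPA and -2.04 (-3.56 to -0.65) for MI-NS.

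In endocardial-like nuclei Cxcl16 had 10 UMIs (133 CPM) in MI-DAPA, 35 (205 CPM) in MI-NS and 31 (84.7 CPM) in Sham-NS, with 1.27 (0.54 to 2.02) for MI-NS over Sham-NS, where 5.14% of 2219 genes were at least 2-fold higher and 6.17% lower, and it was 1 of 2 measurable members. The value was 0.91 after thinning and 0.60 by marker level. Ackr3 had its highest level among classes there when the 3 libraries were summed (106 CPM, against 105 in plasma cell-like nuclei), though in MI-DAPA mesothelial-like nuclei stood higher, at 220 CPM on 4 UMIs, and in Sham-NS lymphatic endothelial-like nuclei did, at 111 CPM. In the endocardial-like nuclei it had 5 (66.6 CPM), 24 (141 CPM) and 36 (98.3 CPM) UMIs and 0.53 (-0.29 to 1.30) for MI-NS over Sham-NS, or 1.15 after thinning, and Ackr4, which removes Ccl19, Ccl21 and Ccl25, had 1, 5 and 3. Most Ackr4 UMIs lay elsewhere, with 66.7% of 57 in fibroblast-like nuclei. In cardiomyocyte-like nuclei Ackr3 had 66 (18.1 CPM), 62 (29.5 CPM) and 57 (14.3 CPM), with 1.04 (0.50 to 1.59) for MI-NS over Sham-NS, or 0.80 under both other scalings, 0.91 by marker level and 1.67 with the stricter filter. It was 1 of 4 measurable members, with 0 lower, against 7.34% and 2.28% of 8211 genes. In MI-DAPA over MI-NS it was -0.70 (-1.23 to -0.18), or -1.32 with the stricter filter and -1.44 after thinning, and 0 of 2 members passed 2-fold, against 0.398% higher and 4.45% lower, and in MI-DAPA over Sham-NS 0 of 4 did, against 2.14% and 1.97%. In mesothelial-like nuclei Ackr3 had 4 UMIs in 15 MI-DAPA nuclei, 46 in 441 MI-NS nuclei and 0 in 15 Sham-NS nuclei. The MI-DAPA over MI-NS ratio of 1.83 had an interval of -0.26 to 3.13, was 0.60 with the stricter filter and 0.38 by marker level, and stands in a class where 13.6% of 2920 genes were at least 2-fold higher and 17.4% lower. Cxcl12 had 1, 56 and 1 UMIs there and no stable direction in MI-NS over Sham-NS, where 22.1% and 14.6% of genes passed 2-fold. Over 11 classes counted together, 19 pairs of a member and a class were measurable in MI-DAPA over MI-NS, of which 2 were at least 2-fold higher and 5 lower, against 2.45% and 5.08% of all pairs of a gene and a class. In MI-NS over Sham-NS, 7 of 25 pairs, from 6 distinct members since Ackr3 is in 2 of them, were higher and 1 lower, against 7.99% and 4.4%. In MI-DAPA over Sham-NS, 2 of 17 were higher and 1 lower, against 2.42% and 2.32%. Members with few UMIs pass the floor more readily when 1 library is high, so these counts too only describe the members.

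**Figure D5:**
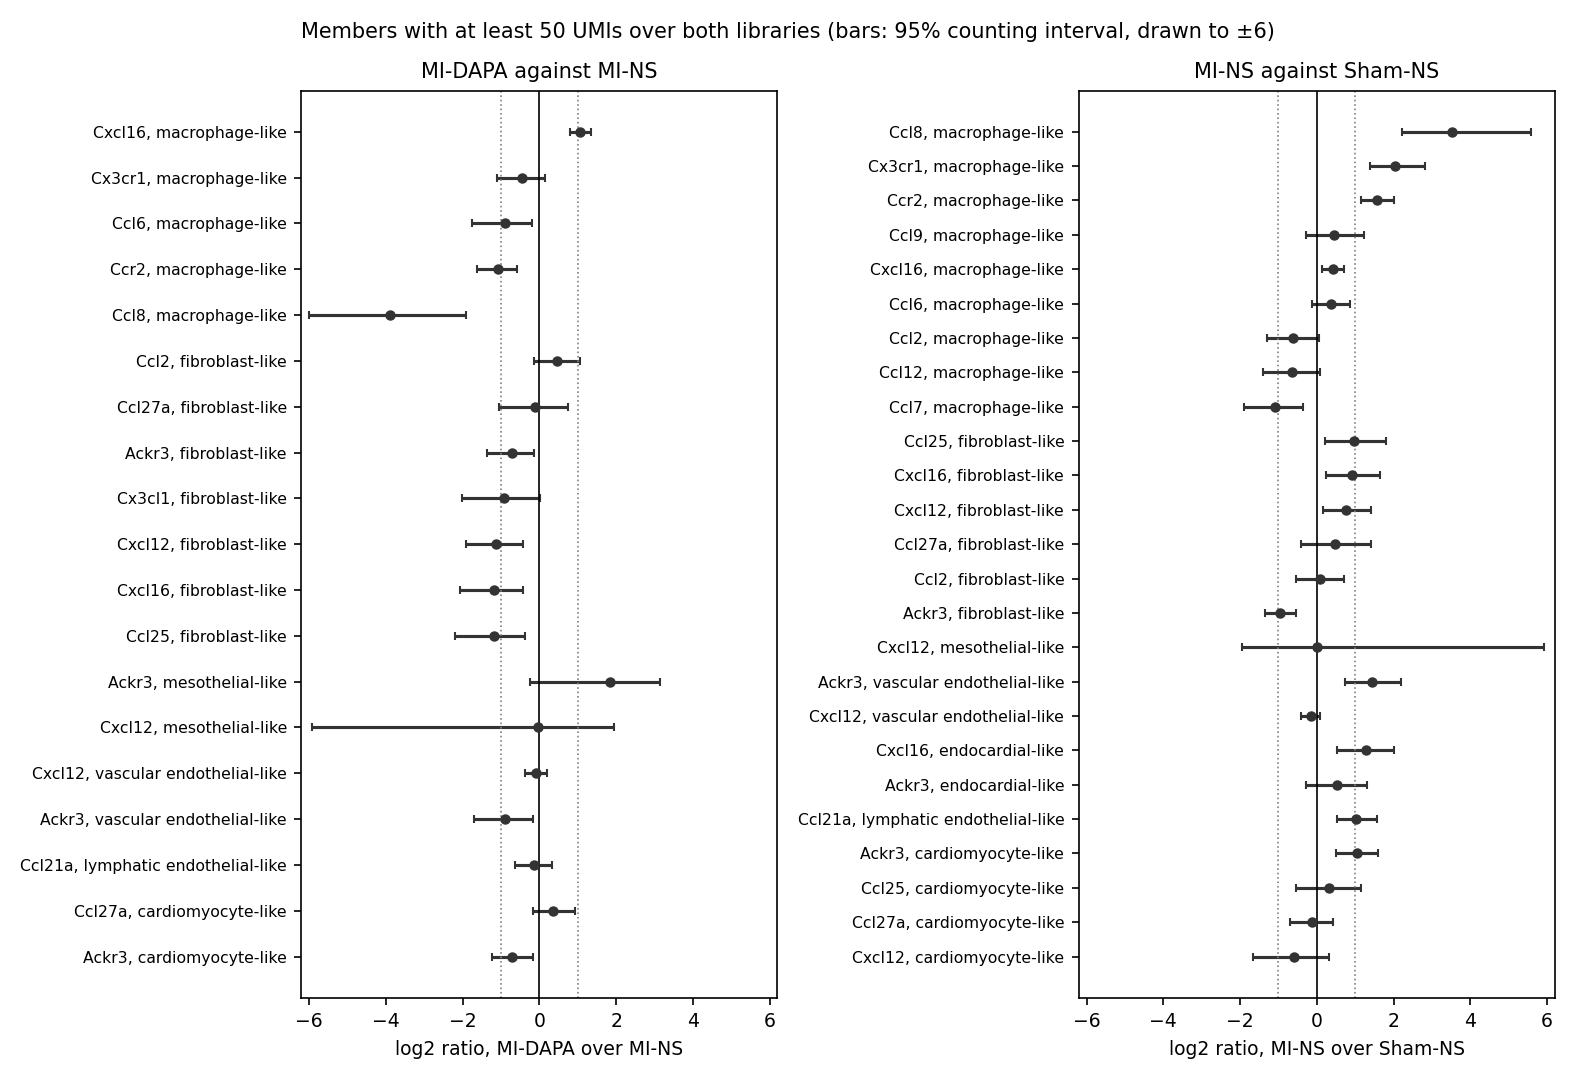
Log2 ratios of the measurable pairs of a member and a class described here, MI-DAPA over MI-NS on the left and MI-NS over Sham-NS on the right; points are ratios of single libraries, bars are exact conditional 95% intervals of counting error drawn to ±6, and dotted lines mark 2-fold. Ccr2 in macrophage-like nuclei lies at -1.07 on the left and 1.57 on the right, and Cxcl16 in macrophage-like nuclei at 1.07 and 0.43.

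UMI totals of ligands and receptors that are known to pair are given here as depth, not as levels to compare. For Cxcl16 and its receptor Cxcr6 there were 1104 and 20 UMIs, and 11 of the Cxcr6 UMIs were in T cell-like nuclei. For Cxcl12, Cxcr4 and Ackr3 there were 1249, 152 and 729, for Cx3cl1 and Cx3cr1 103 and 218, and for Ccl21a and Ccr7 331 and 17. Ccr7 had 0, 0 and 6 UMIs in the B cell-like nuclei of MI-DAPA, MI-NS and Sham-NS. Ccl25 with 295 and Ccr9 with 4 UMIs, and Ccl27a with 402 and Ccr10 with 8, gave few receptor UMIs in which to place a responding class. Within macrophage-like nuclei of the 3 libraries Ccl7 was read in 25.0% of the 52 nuclei with a Ccl2 UMI and in 2.05% of those without, at median depths of 675.5 and 626 UMIs. Ccl9 was read in 12.1% of nuclei with Ccl6 and 2.90% of those without, at 719.5 and 620 UMIs. Cx3cr1 was read in 13.2% of nuclei with Ccr2 and 6.24% of those without, at 640 and 624 UMIs. These pooled shares also carry differences between libraries. For Cx3cr1 they were 19.0% and 6.13% in MI-DAPA, 15.4% and 10.1% in MI-NS and 2.94% and 2.57% in Sham-NS. The nuclei with both genes numbered 4, 16 and 1. For Ccl7 they were 42.9% and 2.35%, 8.70% and 1.86%, and 36.4% and 2.11%, on 3, 2 and 8 nuclei with both.

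The other members had fewer than 50 UMIs. Ccl24 had 44, Cxcl10 43, Cxcl5 41, Ccl19 39, Cxcl2 37, Ackr1 30, Cxcl13 30 and Cxcl9 22. Cxcl13, which gathers B cells, had 29 of its UMIs in MI-NS and 13 of those in mesothelial-like nuclei. Cxcr6 had 20, Ccr6 and Ccr7 17 each, Ccl3 16, Ccl5 and Xcr1 14 each and Cxcr3 11. T cell-like nuclei had the highest CPM of Ccl5, Xcl1 and Cxcr6 and B cell-like nuclei that of Ccr6 and Ccr7. Xcr1, the receptor of cross-presenting dendritic cells, had 3, 9 and 1 UMIs of MI-DAPA, MI-NS and Sham-NS in an unnamed cluster led by cell cycle genes and Clec9a. Ccl11, Ccr10, Ccl17, Cxcr2, Ccl28, Ccr9, Cxcl3, Xcl1, Cxcr5, Ccl22 and Ccr4 had 2 to 9 each. The remaining 17 rows had 0 UMIs in kept nuclei, 14 ligands and 3 receptors: Ccl1, Ccl20, Ccl26, Ccl27b, Cxcl15, Cxcl17, Ccr3, Ccr8, Cxcr1 and copies of Ccl19, Ccl21a, Ccl21b, Ccl21c and Ccl27a. At this depth a count of 0 does not show that a gene was silent.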

How the data were processed

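The authors deposited 1 matrix of UMI counts, not normalized, for each of 3 single-nucleus libraries, written by Cell Ranger 6.0.1 per the file headers. Per the labels' protocols, nuclei were freed with detergent, cleaned over an iodixanol cushion and run on a droplet kit that reads 3′ ends. Seurat and the build mm10 are named per the submitters' processing notes; what Seurat was used for, and whether introns and strand were used in counting, is not given in the sources used here. No barcode held fewer than 500 UMIs.

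Nuclei with at least 300 genes and at most 10% mitochondrial UMIs were kept. Counts were scaled to 10000 a nucleus, and 2000 variable genes without the members, 30 components, 15 neighbours and Leiden resolution 1 gave the clusters (scanpy 1.11.5, leidenalg 0.10.2, Python 3.11.15). A cluster was named where at least 3 markers of a class were 2-fold enriched and its leading 10 genes did not go against the name. Sub-clusters of the macrophage-like class came from 20 components and a resolution of 0.8. The doublet caller marked 0 to 2 nuclei in a library and so had not worked; instead, a cluster whose doublet scores had a median above 0.1 was set aside as mixed, which took 10.7% of MI-DAPA, 12.3% of MI-NS and 16.1% of Sham-NS nuclei.

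UMIs were summed by class and library. Log2 ratios used 0.5 UMI added to each sum. Measurable means 50 or more UMIs summed over the 2 libraries compared, and a difference was counted from 2-fold. Nuclei are not replicates, so no test was made. Intervals (scipy 1.17.1) are exact Poisson for levels, conditional binomial for ratios and Clopper-Pearson for shares, at 95%, and cover counting error only. The floor of 3 counts covers counting error only in the library without UMIs, and not in the library set against it. The scripts were tested on simulated data, with changes larger than 2-fold put into genes well above the floor. Real changes near 2-fold or near the floor were not covered by that test. Of the 67 members 1 is not reported here and was left out of every count, sum, median and figure over members. The members and gene lists were chosen with earlier results of these data known. Named are every member with at least 50 UMIs, every measurable member at least 2-fold apart, and the ends of each list past 2-fold. Alternatives were TMM (edgeR 4.0.16, R 4.3.3) and median-of-ratios scaling, at least 500 genes with at most 5% mitochondrial UMIs, resolution 2, members among the variable genes, classes by marker level, mixed clusters kept, nuclei thinned to 500 UMIs, 1 UMI added, and a floor of 20 UMIs or none. Keeping the conventional dendritic-like sub-cluster in the macrophage-like class was added after seeing the data.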

Additional observations from a re-analysis of the deposited data

How the results depend on the processing

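No paired analysis was possible because each group had 1 library. No called ratio changed sign. Over all 11 classes, MI-NS over Sham-NS had 7 pairs of a member and a class higher and 1 lower as reported. The higher count was 4 with the stricter filter, 4 after thinning, 14 with a floor of 20 UMIs and 105 with no floor. The lower count was 2 with TMM, 2 with median-of-ratios scaling, 0 after thinning, 4 with a floor of 20 and 67 with none. In macrophage-like nuclei the higher count of 3 was 5 with a floor of 20 and 16 with no floor, and the lower count of 1 was 0 with the stricter filter, 0 after thinning and 3 with no floor.

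For MI-DAPA over MI-NS the 2 higher over all classes were 0 with the stricter filter, 1 by marker level, 1 with mixed clusters kept, 1 after thinning, 6 with a floor of 20 and 66 with none. The 5 lower were 3 with the stricter filter, 3 at resolution 2, 1 by marker level, 1 after thinning, 10 with a floor of 20 and 80 with none. In macrophage-like nuclei the 1 higher was 0 with the stricter filter, by marker level and with mixed clusters kept, 2 with a floor of 20 and 6 with none. The 2 lower were 1 with the stricter filter, 0 by marker level, 1 with the dendritic-like sub-cluster kept in the class, 4 with mixed clusters kept, 1 after thinning, 4 with a floor of 20 and 6 with none.

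For MI-DAPA over Sham-NS the 2 higher over all classes were 1 with the stricter filter, 1 after thinning, 4 with a floor of 20 and 62 with none, and the 1 lower was 2 with members in the clustering, by marker level and with mixed clusters kept, 7 with a floor of 20 and 60 with none. In macrophage-like nuclei the 2 higher were 1 with the stricter filter, 1 after thinning and 10 with no floor, and the 0 lower were 1 with members in the clustering, 2 with a floor of 20 and 3 with none. The cause of these shifts was not tested; the 2 floors change how many genes are counted.

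Of the single ratios and shares, those outside their counting interval numbered 9 by marker level, 9 with the stricter filter, 5 after thinning and 2 with mixed clusters kept; 61 of 61 stayed inside it under each scaling, at resolution 2, with members in the clustering and with 1 UMI added, and 21 of 21 in macrophage-like nuclei with the dendritic-like sub-cluster kept in. In macrophage-like nuclei Cx3cr1 and Ccr2 in MI-NS over Sham-NS and Cx3cr1 and Cxcl16 in MI-DAPA over Sham-NS stayed past 2-fold wherever a value could be had. Depth limits most members, since 43 of 66 had fewer than 50 UMIs, and the same share over all genes is not given here.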

Other observations

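Outside the classes described so far, Cxcl12 in pericyte-like nuclei had 6 UMIs (26.4 CPM) in MI-DAPA, 19 (101 CPM) in MI-NS and 20 (57.6 CPM) in Sham-NS, a log2 ratio of -1.86 (-3.55 to -0.56) for MI-DAPA over MI-NS on counts under the floor of 50 UMIs. In endocardial-like nuclei Cxcl12 had 0 UMIs in 82 MI-DAPA nuclei, 9 in 136 MI-NS nuclei and 36 in 301 Sham-NS nuclei. Cxcl9, an interferon-induced ligand of Cxcr3, had 68.2% of its 22 UMIs in vascular endothelial-like nuclei. In T cell-like nuclei Ccr2 had 9, 12 and 7 UMIs in 25 MI-DAPA, 105 MI-NS and 47 Sham-NS nuclei.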
